A study of Danio rerio with 12 samples.

Results

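Oxidative phosphorylation was described through 124 of the 25281 genes in the expression table of zebrafish skeletal muscle. With earlier results of these data known, the genes were taken by a rule on chromosome and symbol. They comprise every gene on the mitochondrial chromosome (MT) and every gene whose symbol begins with nduf, sdha to sdhd, uqcr, cox followed by a digit, or atp5. Of them, 13 are encoded in mitochondrial DNA and 111 in the nucleus. The nuclear genes are 88 subunits, namely 37 of complex I, 5 of complex II, 8 of complex III, 21 of complex IV and 17 of complex V, with the ndufa4 paralogs placed in complex IV. The other nuclear members are 20 assembly factors, 2 inhibitors of the ATP synthase and the supercomplex factor cox7a2l. Complexes I and II pass electrons from NADH and succinate to coenzyme Q, complex III hands them to cytochrome c, and complex IV reduces oxygen with them. Complexes I, III and IV pump protons across the inner mitochondrial membrane, and complex V, the ATP synthase, uses the gradient to make ATP. All complexes but complex II are built from subunits of both genomes, so their assembly draws on transcripts from the nucleus and from mitochondrial DNA, and in muscle these transcripts are among the most abundant of the cell.

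The study asked how gene expression in zebrafish muscle responds to fasting and to a meal. Poly(A) RNA was sequenced from the trunk muscle that lies between the anus and the tail fin of 12 wild-type fish (strain given as not applicable, label age 2 to 3 months). The groups were Fast (no food for 24 h, n = 4), Refed_3h (the same fast, then 3 h after food was given again, n = 4) and Refed_8h (8 h after food was given again, n = 4). All 12 fish had been fasted, and no unfasted group is among the samples. The fish came from a vendor and shared housing. Females and males were in every group, but which fish was which is not given. The groups were sampled at different times of day, so hours since refeeding and time of day cannot be told apart. Because the tissue was sequenced in bulk, fewer cells of a type and less RNA per cell cannot be told apart either.

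Libraries held 11929140 to 18446239 counts on genes, and no pair of libraries of a group looked like a repeat of 1 library. Of the members, 122 passed the filter on low counts and were tested among 16745 genes, and ndufs8b and ndufa4l2b, each with 1 count in 1 library and 0 in the other 11, did not pass it. Levels are given on either of 2 scales. Scaled CPM is a count relative to the library total (CPM) after TMM, a scaling that centres the log ratios of most genes on 0. TPM is relative to exon length and sums to the same total in each fish. TMM factors ran from 1.02 to 1.21 in Fast, 0.790 to 0.989 in Refed_3h and 0.928 to 1.17 in Refed_8h. Every Fast factor lay above every Refed_3h factor, also apart from the libraries at the ends of the range. The part of this difference in scaling in the results was not tested. Replicate 4 of Refed_3h had the lowest TMM factor, 0.790, and replicate 1 of Fast the highest, 1.21. The latter was not set apart, since replicate 1 of Refed_8h had 1.17. The medians over all nuclear subunits and over the mitochondrial genes, and the numbers of members called, are also given without the libraries at the ends of this range. Calls of single members were refitted without them as well. Some mitochondrial genes are given without replicate 4 of Refed_3h. Results by complex, role, exon length, paralog or gene list rest on all fish. So do the counts of genes without overlap and the values of nuclear genes short of the FDR. Markers of fast muscle were abundant, with a summed 52682 to 97076 TPM, against 2968 to 6166 TPM for slow muscle markers. Heart muscle markers summed to at most 7.83 TPM, with the heart light chain gene myl7 at 0 in every fish.

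The 13 mitochondrially encoded genes made up 10.7% to 17.4% of the counts of a library, and the groups overlapped. In time order, the share was 10.7%, 15.6%, 15.8% and 13.5% in the Fast fish, 14.7%, 13.9%, 12.7% and 17.4% in the Refed_3h fish, and 11.9%, 15.1%, 12.5% and 12.8% in the Refed_8h fish. On the TPM scale, which is corrected for length, the mitochondrial genes took 19.1% to 29.9% of the total. The 111 nuclear members took 3.98% to 5.16%.

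The mitochondrial genes differed widely in TPM. The catalytic complex IV subunits mt-co1, mt-co2 and mt-co3 led with a mean of 45711, 39331 and 35746 TPM over 12 fish, and the ATP synthase proton channel subunit mt-atp6 followed with 31318 TPM. Cytochrome b of complex III, mt-cyb, averaged 23116 TPM. The complex I subunits were lower, with 10943 TPM for mt-nd1, 10891 for mt-nd3, 9788 for mt-nd4, 8695 for mt-nd2, 7417 for mt-nd6, 3897 for mt-nd5 and 2560 for mt-nd4l, and mt-atp8 stood at 3760 TPM. mt-co1 was the first of the 13 in 11 of 12 fish. The exception was replicate 4 of Refed_3h, where mt-co1 was the fourth. The genes mt-atp8 and mt-atp6 overlap by 7 bases, mt-nd4l and mt-nd4 by 7, and mt-atp6 and mt-co3 by 1, all on the same strand. mt-atp8 and mt-nd4l span only 165 and 297 bases. Their TPM cannot be read as levels of transcripts separate from those of the genes they overlap. mt-nd6, on the opposite strand, overlaps mt-nd5 by 4 bases. The library kit did not mark strand, so antisense reads across the compact mitochondrial genome cannot be told apart from reads of the genes themselves, which bears on mt-nd6 above all.

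**Figure D1:**
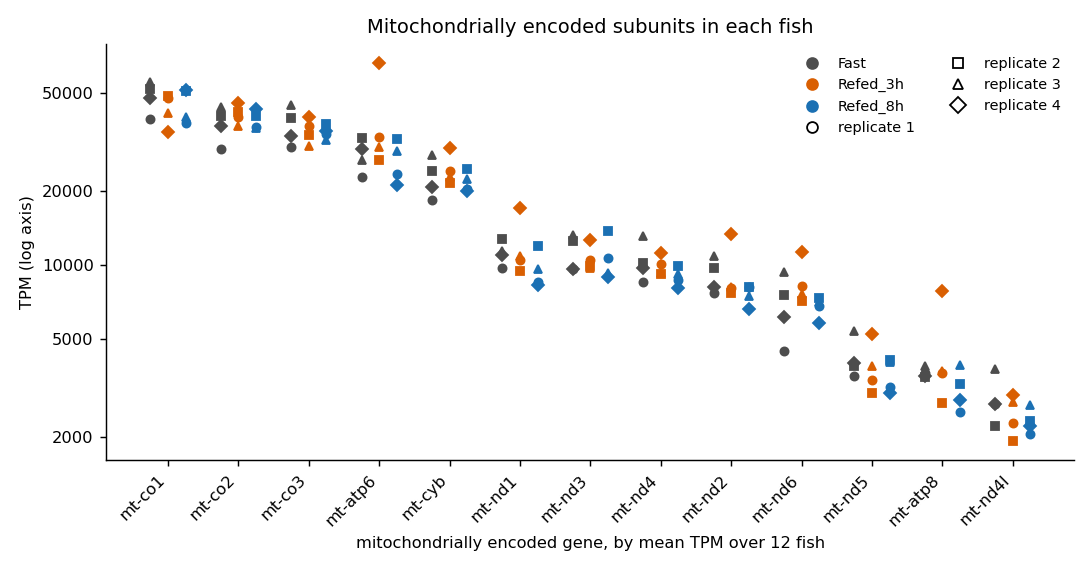
TPM (log axis) of the 13 mitochondrially encoded genes in each of 12 fish, ordered by mean TPM, with groups as colours in time order and replicates as marker shapes. Replicate 4 of Refed_3h (orange diamond) lies at 66532 TPM for mt-atp6 and 7881 TPM for mt-atp8, above every other fish, and at 34805 TPM for mt-co1, below every other fish.

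1 library set the pattern of mt-atp6. In TPM, the gene stood at 22940, 33072, 26847 and 29615 in Fast, 33273, 26856, 30324 and 66532 in Refed_3h, and 23436, 32519, 29115 and 21290 in Refed_8h. Without replicate 4, the Refed_3h fish lay within or just above the Fast range. In that replicate mt-atp6 took 22.3% of the TPM on mitochondrial genes, against 9.80% to 13.9% in the other 11 libraries, while mt-co1 took 11.6%, against 18.6% to 23.7%. mt-atp8 took 2.64% there. The ratio of mitochondrial to nuclear subunit TPM of complex V was likewise 4.95 in that fish, the top of a range that began at 1.77. For the other complexes the ratio reached 6.49 in complex I and ran from 5.73 to 9.26 in complex III and from 6.21 to 12.3 in complex IV, with no separation of the groups.

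Among nuclear subunits, the most abundant member of each complex was ndufb8 in complex I, sdha in complex II, uqcrb in complex III, cox4i1 in complex IV and atp5f1b in complex V. The levels of the last, the catalytic beta subunit of the ATP synthase, in TPM were 2765, 2656, 3048 and 2971 in Fast, 2333, 2385, 2857 and 2819 in Refed_3h, and 2403, 2977, 2781 and 2699 in Refed_8h, with overlap. cox4i1, the main isoform of the regulatory subunit 4 of cytochrome c oxidase, was at 1730 to 2038 TPM for Fast, 2136 to 2558 TPM for Refed_3h and 1404 to 2544 TPM for Refed_8h, so Refed_3h lay above Fast with no overlap and Refed_8h spanned both. sdha, the flavoprotein of succinate dehydrogenase, was at 268 to 342 TPM over all fish, and its groups overlapped. The sums that follow leave out COX5B, COX7A2 and NDUFB1, whose symbols in capitals the rule misses. Summed over a complex, nuclear subunits reached 9510 to 11791 TPM for complex I, 652 to 815 TPM for complex II, 2782 to 3641 TPM for complex III, 11764 to 17495 TPM for complex IV and 13615 to 16270 TPM for complex V, each with overlapping groups.

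Past the FDR of 0.05, 1 of 122 tested members differed between Refed_3h and Fast, 1 between Refed_8h and Fast, and 2 between Refed_8h and Refed_3h (edgeR quasi-likelihood test, Benjamini-Hochberg over all 16745 genes). Over all tested genes, 4.9% passed in Refed_3h against Fast (2.28% higher and 2.63% lower), 1.4% in Refed_8h against Fast (0.543% higher and 0.854% lower) and 6.41% in Refed_8h against Refed_3h (3.06% higher and 3.36% lower). With 1 or 2 calls among 122 genes, these counts are at or below the background and say nothing of the members as a group. At an unadjusted p under 0.05 the members numbered 45, 4 and 27 in these comparisons, which is 36.9%, 3.28% and 22.1%, beside 22.9%, 13% and 22.4% of all tested genes. DESeq2 called 10, 1 and 6 members, and 10.1%, 3.91% and 10.6% of all tested genes. The comparisons with Fast share the Fast fish, and those with Refed_3h share the Refed_3h fish, so their values are given side by side and are not independent.

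The gene that passed in both refed groups was cox4i2, the second isoform of cytochrome c oxidase subunit 4, which in mammals is known from lung and from responses to low oxygen (GRCz11 chr23:18944388-18951148). Its scaled CPM was 8.84, 8.44, 9.00 and 12.2 in Fast, 14.1, 14.9, 11.7 and 16.8 in Refed_3h, and 15.6, 18.4, 15.3 and 16.0 in Refed_8h. Every Refed_8h fish lay above every Fast fish, whereas replicate 3 of Refed_3h lay just below replicate 4 of Fast. The log2 fold change was 0.58 ± 0.16 (SE) in Refed_3h against Fast (edgeR adjusted p = 0.0496) and 0.76 ± 0.16 in Refed_8h against Fast (adjusted p = 0.0271), while Refed_8h against Refed_3h gave 0.18 (adjusted p = 0.533). On the TPM scale the means for Fast, Refed_3h and Refed_8h were 17.9 ± 3.32, 20.8 ± 2.41 and 28.2 ± 2.59 (SD, n = 4 each), and again Refed_8h and Fast did not overlap. The gene was scarce, with 115 to 317 counts per library and 0.598% to 1.79% of the TPM of the 3 subunit 4 paralogs. The call in Refed_3h was the less stable. It was lost in 18 of 24 other settings, 10 of the 12 that leave out 1 library among them, with an adjusted p of 0.0166 to 0.382. That in Refed_8h was lost in 11 of 24, with an adjusted p of 0.000968 to 0.194, among them leaving out replicate 1, 2 or 3 of Fast or replicate 2, 3 or 4 of Refed_8h. The log2 fold change stayed at 0.64 to 0.90 in Refed_8h and at 0.22 to 0.72 in Refed_3h.

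**Figure D2:**
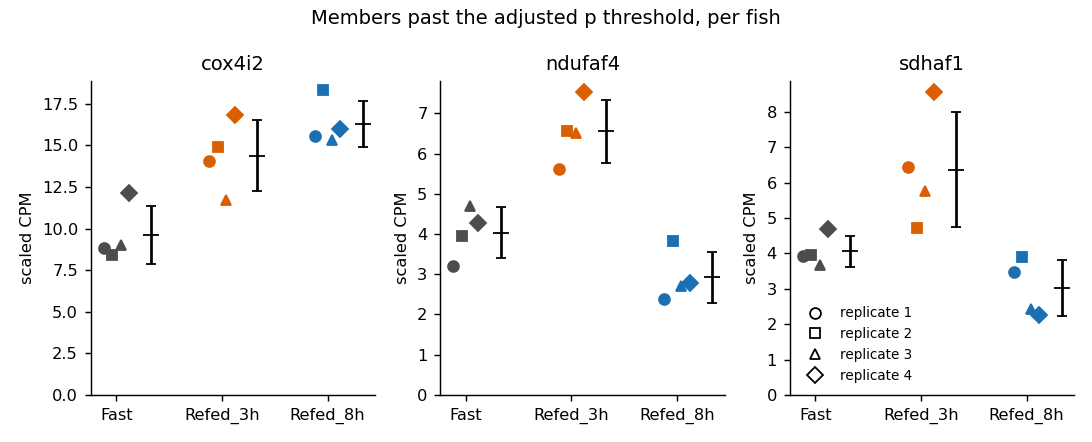
Scaled CPM (axes start at 0) of the 3 members past the FDR in each fish, by group in time order, with the mean and SD of 4 fish beside the points. cox4i2 averaged 9.61 in Fast, 14.4 in Refed_3h and 16.3 in Refed_8h, whereas ndufaf4 (4.03, 6.56 and 2.93) and sdhaf1 (4.06, 6.37 and 3.02) were highest in Refed_3h.

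Both members that fell between 3 h and 8 h of refeeding were assembly factors. ndufaf4, which in humans is needed to build complex I (chr20:400487-403812), had a scaled CPM of 3.20, 3.96, 4.69 and 4.27 in Fast, 5.63, 6.56, 6.51 and 7.54 in Refed_3h, and 2.38, 3.84, 2.70 and 2.78 in Refed_8h. All Refed_3h fish lay above all fish of the other groups. The log2 fold change was −1.17 ± 0.20 in Refed_8h against Refed_3h (edgeR adjusted p = 0.00587), 0.70 ± 0.20 in Refed_3h against Fast (adjusted p = 0.0607) and −0.46 in Refed_8h against Fast (adjusted p = 0.359). The fall held in all 24 other settings, with a log2 fold change of −1.36 to −0.83 and an adjusted p of 1.44e-05 to 0.0244. On the TPM scale, Refed_8h and Refed_3h were also separate.

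sdhaf1, which in humans helps to insert the iron-sulfur clusters of succinate dehydrogenase (chr21:21339311-21344275), had a scaled CPM of 3.94, 3.96, 3.68 and 4.69 in Fast, 6.44, 4.71, 5.78 and 8.56 in Refed_3h, and 3.49, 3.91, 2.43 and 2.27 in Refed_8h. Refed_3h again lay above both other groups, by a narrow margin over Fast. The log2 fold change was −1.07 ± 0.24 in Refed_8h against Refed_3h (edgeR adjusted p = 0.0193), 0.64 in Refed_3h against Fast (adjusted p = 0.123) and −0.43 in Refed_8h against Fast (adjusted p = 0.485). The call was lost in 4 of 24 settings. It was lost without replicate 4 of Refed_3h (edgeR adjusted p = 0.0576) and without replicate 4 of Refed_8h (0.0691). Leaving out both replicate 1 of Fast and replicate 4 of Refed_3h gave 0.0742, and a slow muscle score as a covariate gave 0.0563. sdhaf1 overlaps the clone gene si:ch211-191j22.3 by 4853 bases on the same strand, so the split of reads between these genes is uncertain. Both assembly factors had few counts, 39 to 110 per library for ndufaf4 and 35 to 118 for sdhaf1.

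At 3 h of refeeding the medians over the subunits lay higher in scaled CPM, although no single one but cox4i2 passed the FDR. Per fish the groups overlapped: the median deviation of the nuclear subunits in log2 scaled CPM was 0.07 to 0.49 in Refed_3h, against −0.48 to 0.11 in Fast. The tallies of genes below come from the same libraries, and genes are no independent replicates. Of the tested members, 118 of 122 had a log2 fold change above 0 in Refed_3h against Fast, with a median of 0.38, beside 49.3% and a median of −0.01 over all tested genes. The median was 0.40 over 86 nuclear subunits, of which 84 were above 0, and 0.41 over the 13 mitochondrial genes, all of which were above 0. It was 0.30 over the 20 assembly factors. With a score of slow muscle markers as a covariate, the nuclear median was 0.27 and the mitochondrial one 0.10, with 13 members at an unadjusted p under 0.05 in place of 45. A score of skin markers as a covariate gave 0.27 and 0.25, with 19 such members. By complex, the nuclear median was 0.40 for complex I (36 of 36 above 0), 0.37 for complex II (5 of 5), 0.25 for complex III (8 of 8), 0.55 for complex IV (18 of 20) and 0.39 for complex V (17 of 17). With a median SE of 0.20 per gene, most single subunits moved by less than the spread between fish allows to be called.

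Among the subunits nearest to the threshold, chosen for mention after their values were seen, ndufs4, an accessory subunit of the electron input arm of complex I, gave 0.68 ± 0.19 (edgeR adjusted p = 0.0543). Its scaled CPM was 118, 116, 121 and 153 in Refed_3h, against 70.6, 98.7, 57.0 and 91.7 in Fast, so the groups did not overlap. The complex IV subunits cox4i1 and cox6b2 gave 0.67 (adjusted p = 0.0651) and 0.66 (adjusted p = 0.0686), and ndufb8 gave 0.67 (adjusted p = 0.0658). At the other end, cox6b1 gave −0.15 and cox8a −0.04, the only tested subunits below 0. Of the assembly factors, ndufaf3 gave −0.49 (edgeR adjusted p = 0.297), but it overlaps zgc:112334 on the opposite strand by 4391 bases.

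**Figure D3:**
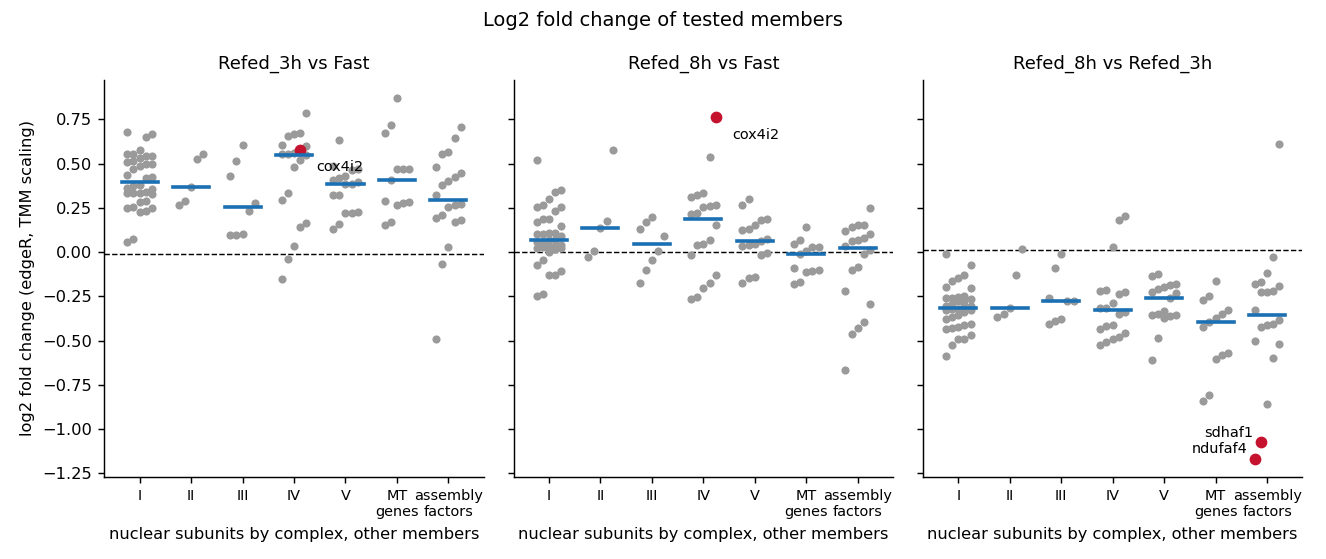
Log2 fold change (edgeR, TMM scaling) of each tested nuclear subunit by complex, of the mitochondrial genes and of the assembly factors, in 3 comparisons. Blue bars are group medians, the dashed line is the median of all tested genes, and red points passed the FDR. Nuclear medians lie at 0.25 to 0.55 in Refed_3h against Fast, at 0.05 to 0.18 in Refed_8h against Fast and at −0.33 to −0.26 in Refed_8h against Refed_3h.

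Complex by complex, the tested nuclear subunits ran as follows in Refed_3h against Fast. In complex I the smallest value was 0.06 for ndufs1, the iron-sulfur protein of the electron input module, and the largest 0.68 for ndufs4. Of the 36 tested subunits, 10 lay higher in every Refed_3h fish than in any Fast fish, beside 6.98% of all tested genes. This count and those below for the other complexes rest on all fish, those with the lowest and highest TMM factors included. In complex II, sdhb, the iron-sulfur protein of succinate dehydrogenase, gave 0.53 (edgeR adjusted p = 0.143) and the membrane anchor sdhc 0.37. sdhb had a scaled CPM of 265, 247, 330 and 271 in Refed_3h, against 154, 202, 204 and 214 in Fast, with no overlap, and was the only subunit of that complex to separate. In complex III none separated, with uqcr10, a small subunit, at 0.61 (edgeR adjusted p = 0.118) and uqcrb at 0.43.

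In complex IV, 5 of 20 tested subunits lay higher in Refed_3h than in Fast without overlap, beside 6.98% of all tested genes. They were cox4i1, cox6b2, cox7a1, cox7c and ndufa4l. cox7c and ndufa4l gave 0.67 and 0.60, and cox5b2 and cox6c gave 0.55 and 0.52. ndufa4 had the largest value of the complex, 0.79, but an SE of 0.55, since its scaled CPM was 50.2, 8.59, 83.9 and 42.6 in Refed_3h, against 39.5, 12.1, 23.9 and 31.6 in Fast. In complex V, 3 of 17 separated: the c ring gene atp5mc3b, the peripheral stalk gene atp5po and atp5meb, a membrane subunit. The catalytic alpha and beta subunits, atp5fa1 and atp5f1b, gave 0.13 and 0.22, against 0.63 for atp5md (edgeR adjusted p = 0.0739), a small membrane subunit. Most of these subunits were named after their values were seen.

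At 8 h the medians were close to those of all genes again in the fit without covariates. In Refed_8h against Fast the nuclear subunits had a median of 0.07 (63 of 86 above 0) and the mitochondrial genes a median of −0.01 (6 of 13), beside 0.00 over all tested genes. With the skin score as a covariate the direction turned, to −0.22 for nuclear subunits (16 of 86 above 0) and −0.49 for mitochondrial genes (0 of 13). The skin score itself ran from −0.06 to 1.45 in Fast and from −1.92 to 0.23 in Refed_8h, so it overlapped. The summed TPM of the skin markers did not overlap between these groups. With the slow muscle score as a covariate the medians were 0.05 and −0.06. In Refed_8h against Refed_3h the medians were −0.31 for nuclear subunits (4 of 86 above 0), −0.39 for mitochondrial genes (0 of 13) and −0.35 for assembly factors (1 of 20), beside 0.01 over all tested genes. By complex the nuclear median was −0.31, −0.32, −0.27, −0.33 and −0.26 for complexes I to V. Here the skin score gave −0.50 for nuclear subunits and −0.69 for mitochondrial genes, and the slow muscle score −0.21 and −0.22.

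Groups that did not overlap on the scaled CPM scale were counted as well. In Refed_3h against Fast, 23 of 122 members were higher in every fish (18.9%, background 6.98%) and 0 were lower in every fish (background 7.02%). In Refed_8h against Fast, only cox4i2 was higher in every fish (background 3.61%) and 0 were lower (background 3.83%). For Refed_8h against Refed_3h, 0 were higher (background 7.03%) and 10 were lower (8.2%, background 7.94%), a share near the background. Of those 10, 6 were assembly factors, namely ndufaf1, ndufaf2, ndufaf4, sdhaf1, cox11 and cox17, and the subunits were ndufa1, ndufb4, cox4i1 and cox6c. None of the 13 mitochondrial genes separated the groups in any comparison.

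These differences depended on the scale. On log2(TPM + 1), the median of the nuclear subunits was 0.06 in Refed_3h against Fast and that of the mitochondrial genes 0.00, but the median of all genes was itself −0.26. Relative to all genes, the medians were 0.32 and 0.26. Between Refed_8h and Refed_3h they were −0.08 and −0.15, with all genes at 0.18, and so −0.26 and −0.33 relative to all genes. The median subunit thus moved little in TPM between Refed_3h and Fast, while the typical gene was lower in Refed_3h. Sums over a complex are another measure. For nuclear subunits, the log2 ratio of mean summed TPM in Refed_3h against Fast ran from −0.03 (complex V) to 0.21 (complex IV). For the mitochondrial subunits of complex V it was 0.46, with replicate 4 of Refed_3h included. On TPM, 4 members lay higher without overlap in Refed_3h than in Fast (ndufb3, ndufs4, cox4i1 and cox6b2) and 3 lower (ndufs1, ndufs3 and uqcrfs1), where all genes gave 1.05% higher and 16.5% lower. Of these, ndufb3 and ndufs1 overlap other genes, by 671 and 24813 bases. In Refed_8h against Fast, 1 member was higher on TPM without overlap, cox4i2, and 5 were lower (ndufaf4, ndufa10, ndufa9a, ndufs3 and atp5if1b), beside 2.05% and 4.29% of all genes. Between Refed_8h and Refed_3h, cox4i2 was higher and 5 members were lower (ndufaf2, ndufaf4, ndufa1, ndufb8 and sdhaf1), beside 11.7% and 2.05% of all genes.

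**Figure D4:**
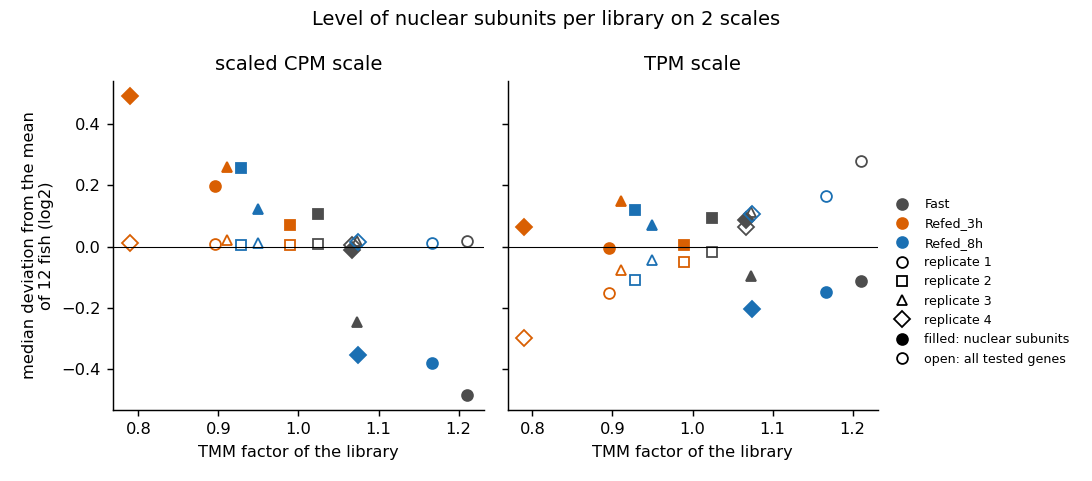
Median deviation of nuclear subunits (filled) and of all tested genes (open) from their mean over 12 fish, in log2 units, against the TMM factor of each library, on the scaled CPM scale (left) and the TPM scale (right). On scaled CPM the subunits run from 0.49 in replicate 4 of Refed_3h to −0.48 in replicate 1 of Fast with all genes near 0, and on TPM the subunits stay between −0.20 and 0.15.

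The size of the difference at 3 h also rested in part on single fish. In log2 scaled CPM, the median deviation of the nuclear subunits from their mean over 12 fish was 0.20, 0.07, 0.26 and 0.49 in Refed_3h, against −0.48, 0.11, −0.25 and −0.01 in Fast, so the groups overlapped. In Refed_8h it was −0.38, 0.26, 0.12 and −0.35, a spread as wide as that of Fast. Without replicate 4 of Refed_3h, the medians in Refed_3h against Fast were 0.33 for nuclear subunits and 0.14 for mitochondrial genes, 0 members passed the FDR in edgeR and 20 had an unadjusted p under 0.05. Without replicate 1 of Fast they were 0.31 and 0.28, with 0 past the FDR. With both left out they were 0.23 and 0.01, with 0 past the FDR and 7 at an unadjusted p under 0.05. For nuclear subunits the direction was therefore kept, and for mitochondrial genes nearly nothing of the difference was left. This joint removal was chosen after the data were seen, and it drops the highest Refed_3h fish and the lowest Fast fish. Leaving out replicate 4 of Refed_3h gave, in Refed_8h against Refed_3h, −0.23 and −0.22 with 1 member called.

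For single mitochondrial genes no comparison passed the FDR. In Refed_3h against Fast, mt-atp6 gave 0.87 ± 0.35 (edgeR adjusted p = 0.163), mt-atp8 0.72 (0.236), mt-nd6 0.67 (0.179), mt-co2 0.47 (0.190) and mt-co1 0.15 (0.689). Without replicate 4 of Refed_3h the log2 ratio of the mean scaled CPM was 0.36 for mt-atp6, 0.16 for mt-atp8, 0.41 for mt-nd6 and 0.18 for mt-co1. In Refed_8h against Fast all 13 lay between −0.18 (mt-nd4l) and 0.14 (mt-co2). In Refed_8h against Refed_3h, mt-atp6 gave −0.84 (adjusted p = 0.178) and mt-co1 −0.16 (adjusted p = 0.692). Without replicate 4 of Refed_3h their log2 ratios of mean scaled CPM were −0.33 and −0.19.

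Subunits were also grouped by role within their complex, a grouping made after the values were seen and given as a description without a test. The 7 tested core subunits of complex I, among them the carriers of the flavin and of the iron-sulfur clusters, had a median log2 fold change of 0.28 (0.06 to 0.47) in Refed_3h against Fast, and the 29 accessory subunits 0.43 (0.23 to 0.68), so the ranges overlapped. In complex III, the core proteins and the Rieske protein (uqcrc1, uqcrc2a, uqcrc2b and uqcrfs1) had 0.10, and the small subunits 0.47. These groups also differed in exon length, with 1648 to 3965 bases for the former and 640 to 1185 for the latter. Role and exon length thus cannot be told apart in complex III. In complex I the median exon length was 1575 bases for core and 787 for accessory subunits. In complex V the F1 subunits, those of the central stalk among them, had 0.23. The c ring had 0.22 and the peripheral stalk and other subunits 0.42. In Refed_8h against Refed_3h the same groups had −0.26 and −0.32 in complex I and −0.18 and −0.38 in complex III. In complex V the order differed, with −0.18 for the F1 subunits, −0.36 for the c ring and −0.23 for the peripheral stalk and other subunits.

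Exon length moved with these values. Nuclear subunits with exons under 1000 bases in all (51 genes) had a median of 0.43 in Refed_3h against Fast, those of 1000 to 2000 bases (27 genes) 0.33 and those of 2000 to 4000 bases (8 genes) 0.37. Over the other tested genes the medians were 0.19, 0.04 and −0.04 in these classes, and −0.08 above 4000 bases. Short genes in general thus lay higher in Refed_3h, and the subunits lay higher than other genes of their length class. In Refed_8h against Fast the other genes followed length as well, with 0.10, 0.04, −0.01 and −0.05. The subunits had 0.08, 0.06 and 0.15 there, so those under 1000 bases lay below other genes of their class. Across the 86 subunits the correlation of log10 exon length with the log2 fold change was r = −0.22 (rho = −0.25) in Refed_3h against Fast, r = −0.02 (rho = −0.04) in Refed_8h against Fast and r = 0.24 (rho = 0.27) in Refed_8h against Refed_3h. These genes share the same 12 libraries and are no independent replicates. The part of length in the difference was not tested.

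Several subunits have paralogs, and in most families of complexes II and IV 1 paralog held most of the TPM. The same was true in complex I of ndufa9a, with 96.8% to 99.1% of ndufa9 TPM, and of ndufs8a, with 99.97% to 100% of ndufs8 TPM. The split was more even for ndufab1 of complex I, where ndufab1a held 60.9% to 70.6%. In complex III, uqcrc2b held 49.2% to 63.4% of uqcrc2 TPM, with uqcrc2a ahead in replicate 4 of Refed_8h. cox6a2, the isoform of heart and skeletal muscle in mammals, took 89.3% to 96.1% of cox6a TPM, and cox8b 71.3% to 88.9% of cox8. cox7a1, also a muscle isoform in mammals, took 80.1% to 91.4% of the TPM of cox7a1 and cox7a2a. COX7A2, which the rule misses, is not in that share. cox5aa took 65.8% to 76.0% of cox5a, ndufa4l 81.4% to 96.3% of ndufa4 and sdhdb 96.2% to 99.5% of sdhd. The shares of cox6a2 were 92.7% to 94.8% in Refed_3h, against 89.3% to 92.1% in Fast, with no overlap. In that comparison cox6a1 had a log2 fold change of 0.03 and cox6a2 one of 0.48 (edgeR adjusted p = 0.939 and 0.310). The more abundant paralog also had the larger value in cox8a (−0.04) beside cox8b (0.61) and cox7a2a (0.16) beside cox7a1 (0.56). In cox5a the order was reversed, with 0.30 for the more abundant cox5aa and 0.55 for cox5ab. None of these passed the FDR.

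In the subunit 4 family, cox4i1 held 81.6% to 86.8% in Refed_8h, against 87.9% to 92.1% in Refed_3h, with no overlap. The minor forms took the difference, with cox4i1l at 12.1% to 17.4% in Refed_8h, against 7.05% to 11.2% in Refed_3h, and cox4i2 at 0.968% to 1.79%, against 0.623% to 0.888%. Apart from cox6a and subunit 4, the shares of every paralog family examined overlapped between the groups in all comparisons. How often a share separates by chance was not tested. Of the c ring genes, whose proteins have the same mature sequence in mammals, atp5mc3b held 54.4% to 62.0% in Fast, 60.9% to 66.7% in Refed_3h and 61.3% to 65.8% in Refed_8h, atp5mc1 25.7% to 35.7% over all fish and atp5mc3a 7.54% to 11.1%. Their log2 fold changes in Refed_3h against Fast were 0.49, 0.16 and 0.22, none past the FDR. ndufa4l2a held 0.716% to 2.79% of ndufa4 TPM. Near-identical copies can share reads, and how such reads were counted is not given, so the shares within these families are uncertain.

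**Figure D5:**
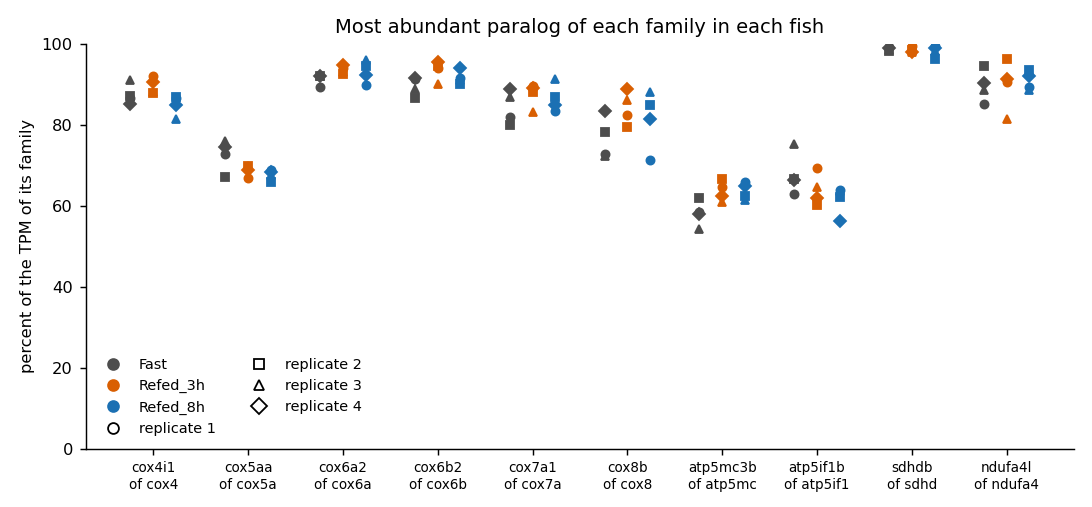
Percent of the summed TPM of each paralog family held by its most abundant paralog, in each fish, with groups as colours in time order and replicates as marker shapes. cox4i1 lies lower in Refed_8h (81.6% to 86.8%) than in Refed_3h (87.9% to 92.1%), and cox6a2 lies higher in Refed_3h (92.7% to 94.8%) than in Fast (89.3% to 92.1%). The other families shown overlap between the groups, and cox7a leaves out COX7A2.

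The inhibitors of the ATP synthase block ATP hydrolysis in mammals when the membrane potential collapses. atp5if1a and atp5if1b together had 435 to 565 TPM in Refed_8h, against 591 to 695 TPM in Fast, with no overlap. This was the only sum by complex and role to separate in any comparison, and it was not tested. Of all tested genes, 4.29% were lower without overlap on TPM in that comparison. On scaled CPM neither inhibitor separated there. On the count model the members did not pass: atp5if1b gave −0.34 in Refed_8h against Fast (edgeR adjusted p = 0.434) and −0.53 ± 0.18 in Refed_8h against Refed_3h (adjusted p = 0.0933), and atp5if1a gave 0.06 and −0.37. atp5if1b, which held 56.2% to 75.4% of the pair, overlaps CR352220.2 on the opposite strand by 1470 bases.

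Apart from ndufaf4 and sdhaf1, none of the 20 assembly factors passed the FDR. Nearest in Refed_8h against Refed_3h were the complex I factors ndufaf1 (−0.52, edgeR adjusted p = 0.0592) and ndufaf2 (−0.86, adjusted p = 0.0665), and for complex IV the copper chaperones cox17 (−0.38, adjusted p = 0.0949) and cox11 (−0.50, adjusted p = 0.103), all named after their values were seen. The heme A synthesis enzymes cox10 and cox15 gave −0.42 and −0.18. The supercomplex factor cox7a2l gave −0.52 (adjusted p = 0.165).

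Genes outside the 124 that serve the same chain were taken from lists chosen with earlier results of these data known. The complex III subunit cyc1, cytochrome c1, gave 0.07 in Refed_3h against Fast and −0.27 in Refed_8h against Refed_3h, and the electron carrier cycsb, cytochrome c, gave 0.20 and −0.63 (edgeR adjusted p = 0.139 for the last), none past the FDR. Of 14 tested genes of coenzyme Q synthesis, 0 passed in Refed_3h against Fast, 1 fell in Refed_8h against Fast and 2 fell in Refed_8h against Refed_3h, with medians of 0.36, −0.08 and −0.40. Of all tested genes, 0.854% fell in Refed_8h against Fast and 3.36% in Refed_8h against Refed_3h. The gene that fell in both was coq10b, which in yeast corresponds to a coenzyme Q binding protein needed for respiration. Its scaled CPM was 99.4, 179, 172 and 113 in Fast, 194, 160, 172 and 172 in Refed_3h, and 20.8, 31.7, 48.5 and 29.0 in Refed_8h, where every fish lay below all others. The log2 fold change was −2.12 ± 0.26 in Refed_8h against Fast (edgeR adjusted p = 0.000622) and −2.42 ± 0.26 in Refed_8h against Refed_3h (adjusted p = 0.000239). pdss1, which makes the coenzyme Q side chain, gave −1.0 in Refed_8h against Refed_3h (adjusted p = 0.0294).

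Of 37 tested assembly factors whose symbols lie outside the rule, 5 fell in Refed_8h against Refed_3h and none passed in the comparisons with Fast, with medians of 0.32 in Refed_3h against Fast, −0.14 in Refed_8h against Fast and −0.45 in Refed_8h against Refed_3h. The largest changes were tmem70, an ATP synthase assembly factor, at −0.97 (edgeR adjusted p = 0.0147), hccsb, a heme lyase for cytochrome c, at −0.73 (0.0110) and fastkd3, a mitochondrial RNA-binding protein, at −0.73 (0.0211). Of 21 genes for transcription of mitochondrial DNA and processing of its RNA, 1 fell in Refed_8h against Refed_3h, the transcription factor tfb2m at −0.93 (edgeR adjusted p = 0.00493), and the medians were 0.11, −0.12 and −0.28. Of 28 other mitochondrial genes 6 fell in Refed_8h against Refed_3h, the prohibitins phb2b (−0.83) and phb2a (−0.65) and the import pore tomm40 (−0.64) among them, with medians of 0.20, −0.07 and −0.25. None of these 3 lists had a member that rose, while 3.36% of all tested genes fell and 3.06% rose.

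Markers of muscle and of other tissues were compared as well. The 10 tested fast muscle genes had a median log2 fold change of 0.69 in Refed_3h against Fast. Of them 2 rose, tnnc2 (0.95, edgeR adjusted p = 0.0296) and actc1b (0.70, adjusted p = 0.0477), beside 2.28% of all tested genes. The 10 slow muscle genes had a median of 0.42, and 0 passed the FDR. The 12 skin markers, led by krt5, had medians of −0.38 in Refed_3h against Fast and −0.63 in Refed_8h against Fast, 0 past the FDR, with summed TPM of 21046 to 24255 in Fast, 12064 to 20625 in Refed_3h and 10589 to 20105 in Refed_8h, so that both refed groups lay below Fast with no overlap. The 7 endothelial markers had medians of 0.28 in Refed_3h against Fast (5 of 7 above 0) and −0.19 in Refed_8h against Refed_3h (1 of 7 above 0). The 1 that passed the FDR went the other way: plvapb fell in Refed_3h against Fast (−0.96, edgeR adjusted p = 0.0156) and rose in Refed_8h against Refed_3h (1.29, adjusted p = 0.00227). The summed endothelial TPM, 79.3 to 87.1 in Fast, 51.1 to 64.3 in Refed_3h and 76.4 to 96.7 in Refed_8h, followed plvapb. The other 6 markers summed to 33.7 to 49.2 TPM in Fast, 34.3 to 41.7 in Refed_3h and 32.3 to 42.2 in Refed_8h, with overlap. The 4 erythrocyte markers had a median of 1.48 in Refed_3h against Fast, 0 past the FDR, and reached a summed 4950 TPM in replicate 2 of Refed_3h. The 5 tested pigment cell markers had medians of −0.69 in Refed_3h against Fast and −0.74 in Refed_8h against Fast, 0 past the FDR. The part of these cell types in the levels of the oxidative phosphorylation genes was not tested beyond the fits with a skin score or a slow muscle score as a covariate, whose medians are given above.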

How the data were processed

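The authors prepared paired-end libraries of poly(A) RNA from 12 fish and mapped the reads in CLC Genomics Workbench to GRCz11. Which annotation release was used, and how strand and reads with several matches were treated, is not given in the sources used here. Strand is not marked by the library kit. Counts deposited by the authors are whole numbers per gene and were not normalized. The deposited TPM and RPKM are the authors' values relative to exon length. A deposited column named CPM holds the authors' scaled score, whose sum differs between libraries, and was not used. Columns of the authors' comparisons (fold changes, p-values and FDR) were not used.

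Tests on counts used edgeR 4.0.16 (R 4.3.3): filterByExpr, TMM, 1 robust quasi-likelihood fit of 3 groups, contrasts by glmQLFTest, and Benjamini-Hochberg adjustment over 16745 genes at an FDR of 0.05. The biological coefficient of variation was 30.6%. SE was the log2 fold change divided by the root of F. Alternatives used DESeq2 1.42.0, limma 3.58.1 on log2(TPM + 1) or log2(TPM + 0.1), RLE factors, MT genes outside the scaling, no filter, a fit of only the groups compared, a block for the replicate number, a term for replicates 1 and 2 against 3 and 4, a skin or slow muscle score as a covariate, and each library left out. Chosen after seeing the data were the joint removal of replicate 1 of Fast and replicate 4 of Refed_3h and the use of TPM for overlap. Exon length was recovered from counts and RPKM. The edgeR and limma fits were tested on simulated counts with known changes. Shifts as small as the medians over the subunits, the covariate fits, the counts without overlap and the exon lengths were not simulated.

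P-values measure the spread between these fish. Named genes were all MT genes, members past the FDR, the most abundant nuclear subunit per complex, listed paralogs, up to 3 called genes per related list and the leading marker. Others are said to be named after their values were seen. Members and lists were chosen with earlier results of these data known. Of the member IDs, 123 were in a table of gene names, 107 under the same symbol. The rule misses 4 symbols written in capitals, COX5B, COX7A2, NDUFB1 and NDUFAF8. Sums and ratios by complex and the cox7a shares leave them out.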

Additional observations from a re-analysis of the deposited data

Results flagged for a closer look

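In 156 groups of 4 fish (36 named members and the sums per complex, each in 3 groups), 7 had a highest or lowest fish whose gap to the next was, relative to the group's range, above Dixon's critical value. By chance about 1 in 20 groups would. In Refed_3h, replicate 4 was the highest for mt-nd2 (scaled CPM of 11644, others 5185 to 6061), mt-atp8 (1084, others 294 to 429) and mt-atp6 (37937, others 11850 to 16249), and for the summed TPM of the mitochondrial subunits of complex V (74414, others 29617 to 36913), which rests on the same genes. In Fast, replicate 4 was the highest for cox4i2 (scaled CPM of 12.2, others 8.44 to 9.00). Replicate 1 of Fast was the lowest for atp5f1b (scaled CPM of 2476, others 3102 to 3214) and for atp5if1b (146, others 212 to 219). On the TPM scale it was not the lowest Fast fish for atp5f1b. The flagged fish are the libraries with the lowest (0.790, replicate 4 of Refed_3h) and highest (1.21, replicate 1 of Fast) TMM factor, apart from replicate 4 of Fast. The cause was not tested.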

How the results depend on the processing

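Across the alternatives, calls of single genes were lost 33 times, all of cox4i2 or sdhaf1. The number of members past the FDR in Refed_3h against Fast (1) was 10 with DESeq2, where 10.1% of all tested genes passed. It was 0 with RLE factors, with no filter and with limma on either TPM scale. It was also 0 with the skin score, with the slow muscle score and without both libraries at the ends of the TMM range. In these settings 0.751% to 7.67% of all genes passed. The number was 2 with the replicate block (5.58% of all genes) and with the term for replicates 1 and 2 against 3 and 4 (7.01%). In Refed_8h against Fast (1) it was 0 with limma on either TPM scale and with only these groups in the fit. The skin score and the fit without both libraries gave 0 as well, and 0.591% to 1.24% of all genes passed in these settings. In Refed_8h against Refed_3h (2) it was 6 with DESeq2 (10.6% of all genes) and 17 with the skin score (8.26%). It was 1 with the slow muscle score (2.88%) and 1 without both libraries (3.27%). Leaving out 1 library gave 0 to 3, 0 to 1 and 1 to 5 calls. The shares of all genes were then 1.55% to 4.73%, 0.882% to 1.35% and 2.7% to 6.86%. On log2(TPM + 1) and log2(TPM + 0.1) the medians in Refed_3h against Fast were 0.063 and 0.055 for nuclear subunits and 0.0032 and 0.0032 for mitochondrial genes, and without both libraries the mitochondrial median was 0.014. With the skin score the medians in Refed_8h against Fast were −0.22 and −0.49. With the slow muscle score the mitochondrial median in Refed_3h against Fast was 0.10. The nuclear median in Refed_8h against Fast fell just below 0 without replicate 1 of Fast or replicate 2 of Refed_8h, and the mitochondrial median in Refed_3h against Fast was 0.14 without replicate 4 of Refed_3h. Leaving out 1 library, the nuclear medians ran from 0.31 to 0.51, −0.02 to 0.18 and −0.44 to −0.23, and the mitochondrial ones from 0.14 to 0.52, −0.17 to 0.08 and −0.52 to −0.22. The cause of these moves was not tested.

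The replicate number was not taken to pair the fish. Deviations of same-numbered fish correlated at −0.19 to 0.27, but differently numbered fish were not compared. The replicate block gave 2, 1 and 2 calls, adding ndufs4 in Refed_3h against Fast. With the term for replicates 1 and 2 against 3 and 4, 7.01%, 1.93% and 8.2% of all tested genes passed, against 4.9%, 1.4% and 6.41% without it. Whether the replicate number stands for a shared factor was not tested. cox4i2, ndufaf4 and sdhaf1 had 35 to 317 counts per library, and the part of depth in their errors was not tested.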
